A study of Mus musculus with 6 samples.

Results

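The potassium channel gene family of mouse was followed here in fetal leg muscle with and without the long noncoding RNA *SYISL*. A member was any protein-coding gene whose GENCODE release M21 symbol begins with Kcn and that held at least 10 counts over the 6 samples. This gave 91 members among the 56262 genes of the count table. There were 94 protein-coding Kcn genes in all, and *Kcnj1*, *Kcnk15* and *Kcnk9* fell under the minimum. Another 5 Kcn symbols belong to noncoding genes and were not members. The rule used no difference between genotypes. The 91 members fall into 7 classes, namely 17 voltage-gated (Kv) pore-forming subunits, 10 electrically silent Kv modifiers, 13 KCNQ and EAG channels, 13 Kv auxiliary subunits, 14 inward rectifiers (Kir), 12 tandem-pore (K2P) channels and 12 channel genes activated by calcium or sodium.

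RNA-seq was done on leg muscle of fetuses at embryonic day 18.5, with 3 wild-type (WT) and 3 *SYISL* knockout (KO) samples. *SYISL* overlaps an intron of *Synpo2* and has no entry of its own in the annotation used. Each genotype was bred by mating mice of that same genotype, so the KO fetuses also had KO mothers, and the effects of maternal and fetal genotype cannot be told apart. WT mice came from a university animal center and are not described as littermates of the KO mice. The sources do not say whether each sample is 1 fetus or a pool, so the p-values below measure only the spread between these samples. Libraries held 82054811 to 102233181 counts.

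Potassium channels let K+ leave or enter the cell along its gradient and so set the resting potential and end each action potential. In skeletal muscle, Kv channels repolarize the fiber, inward rectifiers and tandem-pore channels hold it near rest, and ATP-sensitive (KATP) channels couple its excitability to its energy state. The channel pore is built from alpha subunits, and auxiliary subunits such as the KCNE and KChIP proteins change its gating and its traffic to the membrane.

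Muscle fiber markers were the most abundant of the marker lists in KO samples, with a summed level of 19565 to 21885 CPM (counts scaled to a common library size, after TMM scaling) in WT and 41499 to 50760 CPM in KO, and 8 of 10 were called higher. The other tissue in the samples also differed by genotype. Epidermal markers summed to 16076 to 23889 CPM in WT and 704 to 813 CPM in KO, with 9 of 9 called lower, and red blood cell markers to 3933 to 5173 and 545 to 665 CPM, with 6 of 6 lower. Fat markers went from 111 to 142 CPM in WT to 346 to 409 CPM in KO. Neuron and axon markers summed to 27.9 to 32.3 CPM in WT and 26.9 to 28.5 CPM in KO, with 4 of 10 called lower and 1 higher. No marker of these lists was at 0 in all 6 samples. In whole tissue, fewer cells of a type and less RNA per cell cannot be told apart, and the part of these shifts in the channel results was not tested.

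A gene was called higher or lower in KO at a Benjamini-Hochberg adjusted p under 0.05 in edgeR's quasi-likelihood test and a fold change over 1.5, with p-values adjusted over all 22071 genes tested. Of the 91 channel genes, 79 were abundant enough to be tested and 12 were not. Among those 79, 15 were called higher and 10 lower in KO. These 25 genes are 31.6% of the tested members, beside 16.7% of all genes tested in the same comparison, where 8.31% were called higher and 8.39% lower. Without the fold threshold, 45 members passed, 27 higher and 18 lower, which is 57.0% of those tested. Over all genes tested, 45.0% passed, 21.9% higher and 23.1% lower. The 3 WT values and the 3 KO values did not overlap for 49 tested members, which is 62.0% of them and 55.9% of all genes. The median log2 fold change of KO over WT was 0.12 over the tested members and -0.0041 over all genes. Of the called members, 24 had no overlap between genotypes, and *Kcne2* was the exception.

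Calls by class rest on few genes each and are given beside 8.31% of all genes tested called higher and 8.39% called lower. Of the tested Kv pore-forming subunits, 5 of 16 were called higher and 0 lower, and of the Kv modifiers 2 of 8 were higher. The KCNQ and EAG class split, with 2 of 12 higher and 4 lower. Auxiliary subunits had 1 of 12 higher and 2 lower, inward rectifiers 2 of 11 higher and 1 lower, and K2P channels 1 of 10 higher and 3 lower. Channels activated by calcium or sodium had 2 of 10 higher and 0 lower. Median log2 fold changes ran from -0.29 in the K2P class to 0.33 in both the Kv pore-forming class and the calcium- and sodium-activated class. Whether classes differ from each other was not tested.

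**Figure D1:**
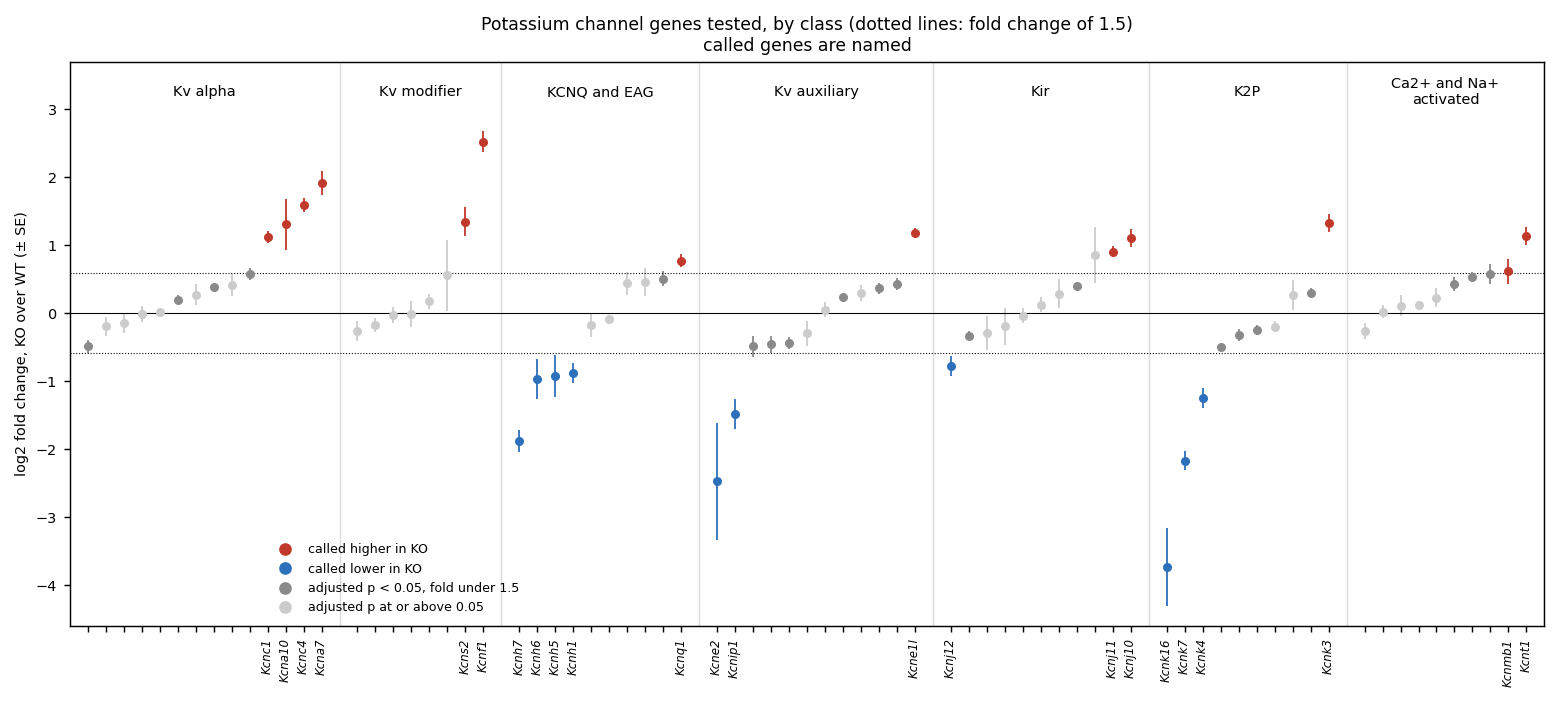
Log2 fold change of KO over WT (y axis) for 75 of the 79 tested channel genes, by class (x axis); each point is a gene with its SE as a bar, color marks its call, and called genes are named. Red points above the upper line are 13 of the genes called higher and blue points below the lower line the 10 called lower, and the Kv pore-forming class holds 4 red points and 0 blue ones.

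The DNA just upstream of the start site is shown for 3 genes that carry the main directions below. These are *Kcne1l*, the most abundant member, *Kcnf1*, the member with the highest log2 fold change, and *Kcnk4*, a leak channel gene called lower. Each stretch lies upstream of both the RefSeq and the GENCODE start, is read 5′ to 3′ on the minus strand of GRCm38.p6 (the mm10 assembly) and comes from RefSeq. Capitals mark CAGCTG, an E-box of the form that myogenic bHLH factors are known to bind, which reads the same on both strands.
*Kcne1l*, chrX:142306295-142306448: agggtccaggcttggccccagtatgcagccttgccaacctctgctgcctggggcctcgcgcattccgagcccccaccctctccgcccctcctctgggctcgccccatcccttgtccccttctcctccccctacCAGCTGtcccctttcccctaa
*Kcnf1*, chr12:17176889-17177138: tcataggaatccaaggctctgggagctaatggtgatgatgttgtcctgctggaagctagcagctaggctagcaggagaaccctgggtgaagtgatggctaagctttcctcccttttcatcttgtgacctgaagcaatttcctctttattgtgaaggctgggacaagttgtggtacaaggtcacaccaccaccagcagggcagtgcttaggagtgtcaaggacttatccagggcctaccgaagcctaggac
*Kcnk4*, chr19:6934516-6934765: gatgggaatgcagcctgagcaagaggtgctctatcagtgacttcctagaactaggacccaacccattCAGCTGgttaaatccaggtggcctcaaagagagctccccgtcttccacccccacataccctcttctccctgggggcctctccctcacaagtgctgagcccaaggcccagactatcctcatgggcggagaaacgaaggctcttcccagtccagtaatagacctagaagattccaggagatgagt
The *Kcne1l* stretch is 67.5% G and C, against 51.2% for *Kcnf1* and 54.8% for *Kcnk4*. CAGCTG stands 1 time upstream of *Kcne1l*, a gene higher in KO, and 1 time upstream of *Kcnk4*, a gene lower in KO, and it does not occur in the *Kcnf1* stretch.

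Promoter windows of 250 bases before to 50 bases after the RefSeq start were available for 67 of the 91 members, including 8 genes called higher and 10 called lower. CAGCTG was found in 23 of 92 windows of members (25.0%), in 1 of 8 windows of genes called higher (12.5%) and in 2 of 13 windows of genes called lower (15.4%). Of all 32851 windows, 16.3% held it. The wider E-box CANNTG, which includes every CAGCTG, was in 72.8% of member windows and 72.3% of all windows. The motif of MEF2, a muscle transcription factor, was searched on both strands and was in 1 of the 92 member windows and 0 of those of called genes, beside 0.557% of all windows. These matches describe the letters only.

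Levels of different genes were compared as CPM per kilobase of exon. *Kcne1l*, which encodes the single-pass KCNE5 subunit that modifies Kv channel gating, ranked first of the 91 members. Its level was 21.5 CPM per kilobase in WT and 48.9 in KO. Its share of the per-kilobase sum of the family was 18.3 to 18.7% across WT libraries and 29.2 to 32.2% across KO libraries. The summed CPM of the family was 439.8 to 449.5 in WT and 536.9 to 589.6 in KO, with no overlap. Among the next in the order of mean level per kilobase were *Kcnj8*, *Kcnk6*, *Kcnh2*, *Kcnj11* and *Kcnj12*. In all, 28 members reached a mean of 1 CPM per kilobase, and mean levels of single genes ran from 0.0187 to 54.4 CPM.

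**Figure D2:**
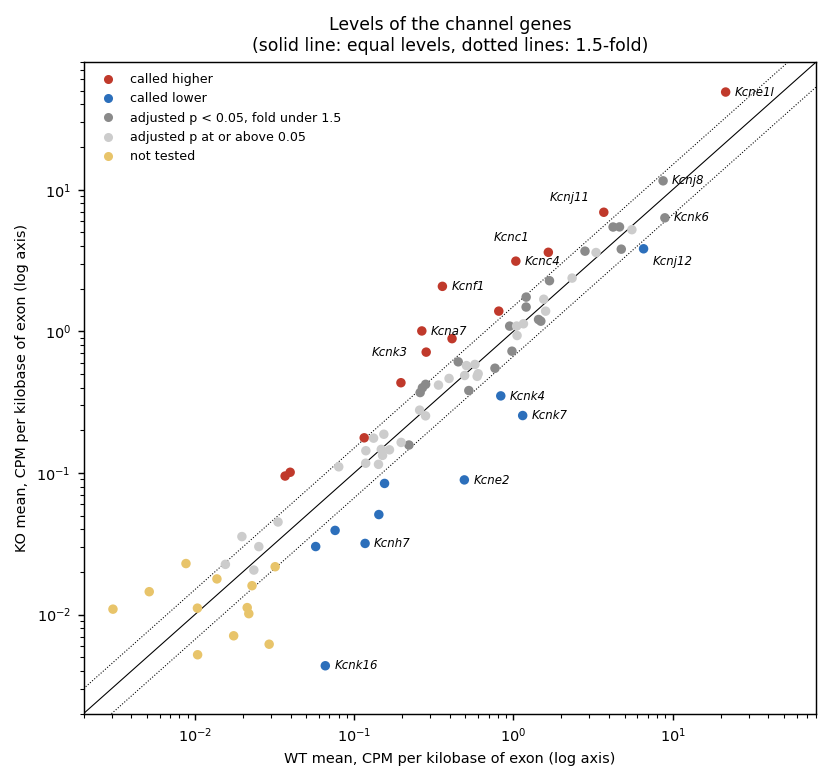
Mean level of 87 of the 91 channel genes in WT (x axis) and KO (y axis), in CPM per kilobase of exon on log axes; color marks the call. *Kcne1l* stands apart at the upper right, at 21.5 in WT and 48.9 in KO, and most genes lie between the dotted 1.5-fold lines.

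The Kv pore-forming subunits called higher included the Kv3 genes *Kcnc1* and *Kcnc4* and the Kv1 genes *Kcna7* and *Kcna10*. *Kcna7* (ENSMUSG00000038201.10, chr7:45405653-45409763, plus strand) encodes Kv1.7, a subunit known from skeletal and heart muscle. It measured 0.486, 0.641 and 0.616 CPM in WT, against 1.75, 2.44 and 2.39 CPM in KO, so every KO sample lay above every WT sample. The means were 0.581 ± 0.0833 and 2.2 ± 0.388 CPM (SD, n = 3), a log2 fold change of 1.92 (SE 0.17, adjusted p = 1.92e-05, edgeR).

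Kv3 channels are known for fast opening and closing at depolarized potentials. *Kcnc4* (chr3:107438303-107459552) measured 3.44, 3.87 and 4.09 CPM in WT, against 9.77, 12.3 and 12.3 CPM in KO, for a log2 fold change of 1.59 (SE 0.11, adjusted p = 2.94e-06, edgeR). *Kcnc1* (chr7:46396497-46438704) measured 15.3, 15.5 and 16.3 CPM in WT, against 29.4, 36.1 and 37.1 CPM in KO, for a log2 fold change of 1.12 (SE 0.085, adjusted p = 5.98e-06, edgeR). Both genes had no overlap between genotypes and were lowest, among KO samples, in replicate 1. Per kilobase, *Kcnc4* stood at 0.582, 0.644 and 0.648 times *Kcnc1* in WT and at 0.858, 0.883 and 0.856 times in KO. *Kcnc2* was not called, at a log2 fold change of 0.28.

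*Kcna10* was scarce, at 0.0528, 0.0726 and 0.133 CPM in WT, against 0.160, 0.231 and 0.267 CPM in KO, and its log2 fold change was 1.31 (SE 0.38, adjusted p = 0.0185, edgeR). That call was lost in 3 of the 6 fits without 1 sample, with a highest adjusted p of 0.0739. *Kcna10* also needed its KO samples, where it is high, to pass the low-count filter. The Kv1.5 gene *Kcna5* ranked first of the Kv pore-forming subunits per kilobase. It rose by less than 1.5-fold, from 8.28, 7.86 and 8.05 CPM to 10.3, 10.6 and 10.7 CPM, without overlap. *Kcna6*, *Kcna4* and *Kcnb2* had log2 fold changes between -0.15 and 0.02 and did not pass the test.

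The silent modifiers do not form channels alone but change those that other Kv subunits form. *Kcnf1* (ENSMUSG00000051726.6, chr12:17172100-17176888, minus strand), which encodes Kv5.1, measured 1.83, 1.39 and 1.93 CPM in WT, against 7.99, 11.0 and 10.9 CPM in KO. The genotypes were well apart, with means of 1.72 ± 0.287 and 9.95 ± 1.70 CPM (SD, n = 3). Its log2 fold change of 2.53 (SE 0.16, adjusted p = 1.59e-06, edgeR) was the highest of the 79 tested members. *Kcns2* also rose, from 0.243, 0.157 and 0.218 CPM to 0.565, 0.577 and 0.452 CPM (log2 fold change 1.35, SE 0.22, adjusted p = 8.48e-04, edgeR). *Kcns3*, which had 3.0, 3.48 and 3.53 CPM in WT, against 3.05, 3.13 and 2.69 CPM in KO, overlapped between genotypes and did not pass. The other 5 tested modifiers had log2 fold changes between -0.27 and 0.56, and none of them passed the test.

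**Figure D3:**
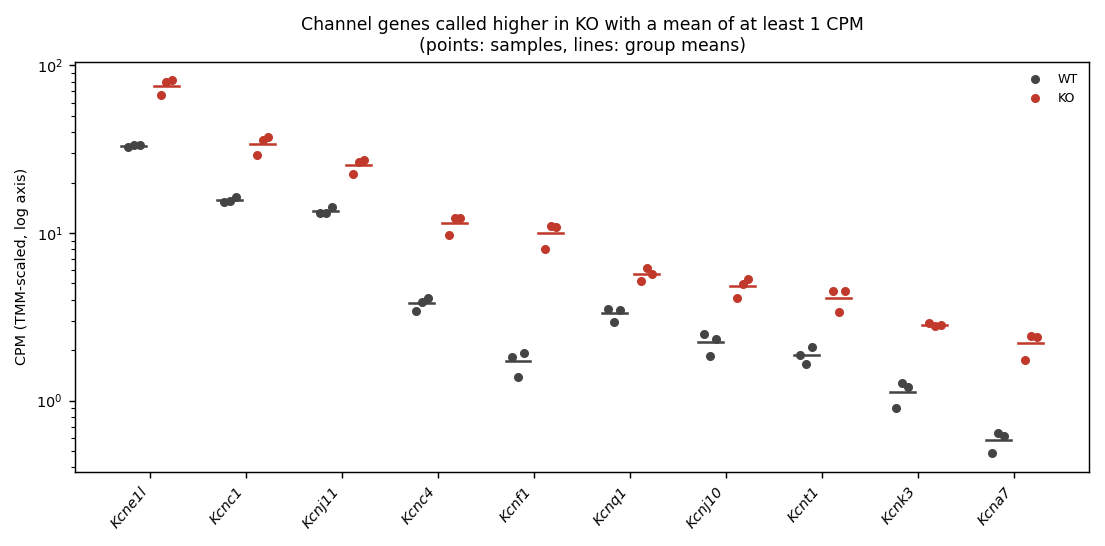
Level in each sample (y axis, CPM on a log axis) of 10 channel genes called higher in KO with a mean of at least 1 CPM (x axis), with a point for each sample and a line for each group mean. The 3 KO points lie above the 3 WT points for each gene, and the gap is widest for *Kcnf1*, at 1.72 CPM in WT, against 9.95 CPM in KO.

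In the KCNQ and EAG class, the calls split by subfamily. KCNQ (Kv7) channels carry slow, non-inactivating currents that steady the membrane potential. *Kcnq1*, whose product pairs with KCNE subunits, measured 3.53, 2.95 and 3.47 CPM in WT, against 5.14, 6.19 and 5.72 CPM in KO. Its log2 fold change was 0.78 (SE 0.10, adjusted p = 1.98e-04, edgeR). The genotypes did not overlap. *Kcnq5* passed the test at a log2 fold change of 0.51, under the fold threshold, and *Kcnq3* (0.44, adjusted p = 0.0544, edgeR) did not pass.

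The antisense RNA *Kcnq1ot1* shares 121 exon bases with *Kcnq1*, 2.96% of that gene's exons, and the strand setting of the counting is not given in the sources used here. *Kcnq1ot1* itself had 47.6 ± 1.44 CPM in WT, against 47.4 ± 2.36 CPM in KO (SD, n = 3) and did not pass the test (log2 fold change -0.0068, adjusted p = 0.919, edgeR).

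The EAG, ERG and ELK genes are best known from neurons and heart. Of the 7 tested, 4 were called lower, beside 8.39% of all genes tested, and the median log2 fold change of the 7 was -0.88. Among those called, *Kcnh5* needed its WT samples, where it is high, to pass the low-count filter. *Kcnh7* (ERG3) had 1.72, 1.68 and 1.95 CPM in WT, against 0.437, 0.420 and 0.596 CPM in KO, and its log2 fold change was -1.88 (SE 0.16, adjusted p = 1.27e-05, edgeR). *Gca*, which lies on the opposite strand and shares 696 exon bases with it (4.57% of the *Kcnh7* exons), was also lower, at a log2 fold change of -0.87 (adjusted p = 3.04e-04, edgeR). *Kcnh1* (EAG1), a gene known from the differentiation of human myoblasts, measured 1.30, 1.11 and 1.0 CPM in WT, against 0.640, 0.640 and 0.575 CPM in KO. Its log2 fold change was -0.88 (SE 0.15, adjusted p = 0.00113, edgeR).

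*Kcnh5* and *Kcnh6* were scarce, with KO means of 0.123 and 0.139 CPM, and had log2 fold changes of -0.92 and -0.96. Their calls were the least firm of the subfamily. In edgeR, leaving out 1 sample raised the adjusted p of *Kcnh5* to as much as 0.103 and that of *Kcnh6* to 0.117, and each lost its call in 4 of the 6 such fits. The most abundant gene of the subfamily, *Kcnh2* (ERG1), had 24.4, 27.3 and 29.1 CPM in WT, against 25.2, 25.4 and 25.4 CPM in KO. These values overlapped, and *Kcnh2* did not pass the test (log2 fold change -0.09, adjusted p = 0.291, edgeR). *Kcnh3* (-0.18, adjusted p = 0.446, edgeR) did not pass either. *Kcnh8* went the other way (0.46, adjusted p = 0.0961, edgeR) and did not pass, but was called in the fit without WT replicate 1. In the neuron and axon list, *Nefl*, *Nefm*, *Tubb3* and *Elavl4* were lower and *Snhg11* was higher, and the part of nerve content in the EAG and ERG values was not tested.

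Of the auxiliary subunits, *Kcne1l* (ENSMUSG00000090122.3, chrX:142304752-142306294, minus strand) measured 32.8, 33.6 and 33.3 CPM in WT, against 66.1, 79.0 and 81.3 CPM in KO. Means were 33.2 ± 0.431 and 75.5 ± 8.17 CPM (SD, n = 3), without overlap and with a wider spread in KO. The log2 fold change was 1.18 (SE 0.071, adjusted p = 1.38e-06, edgeR). *Kcne3*, which steers Kv channels and is known to pair with Kv3.4 in muscle, went from 8.33, 7.74 and 8.69 CPM to 9.92, 9.70 and 9.53 CPM. That rise was under 1.5-fold (log2 fold change 0.23, adjusted p = 0.0161, edgeR). *Kcne4* (0.37) and *Kcnab2* (0.43), which encodes a cytoplasmic beta subunit of Kv1 channels, also rose by less than 1.5-fold.

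*Kcne2* was called lower, but its high WT values came from replicates 1 and 3. In WT its counts were 182, 6 and 65, and in KO they were 21, 14 and 10, so WT replicate 2 lay below every KO sample and the genotypes overlapped. The log2 fold change was -2.47 (SE 0.86, adjusted p = 0.0416, edgeR). It became -1.20 (adjusted p = 0.199, edgeR) without WT replicate 1, and the call was lost in 5 of the 6 fits without 1 sample, in DESeq2, where the adjusted p was 0.0801, and in limma-voom (0.270). *Guca2b*, a gut peptide gene picked out after its values were seen, had counts of 6851, 11 and 1910 in WT against 2, 3 and 5 in KO, with the WT samples in the same order as for *Kcne2*.

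KChIP proteins bind Kv4 channels, the source of fast transient currents, and raise their surface expression. All 4 KChIP genes passed the test as lower at any fold, beside 23.1% of all genes tested. *Kcnip1* was past the fold threshold, with 0.813, 1.0 and 0.843 CPM in WT, against 0.427, 0.273 and 0.247 CPM in KO (log2 fold change -1.49, SE 0.22, adjusted p = 4.50e-04, edgeR). *Kcnip2*, *Kcnip3* and *Kcnip4* had log2 fold changes of -0.49, -0.44 and -0.46. Of the Kv4 genes themselves, *Kcnd2* fell (-0.48, adjusted p = 0.00275, edgeR), *Kcnd1* rose (0.20, adjusted p = 0.0366) and *Kcnd3* did not pass (-0.20, adjusted p = 0.281). Of the 9 Kv4 complex genes, counting *Dpp6* and *Dpp10*, which are not Kcn genes, 7 passed as lower and 2 of these were past the fold threshold, beside 23.1% and 8.39% of all genes tested. This grouping was made after the values were seen, so its shares describe these genes and are not a test. *Dpp10* also needed its WT samples, where it is high, to pass the low-count filter. *Kcnmb1*, called higher, lies within the span of *Kcnip1* on chromosome 11 and shares no exon bases with it.

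**Figure D4:**
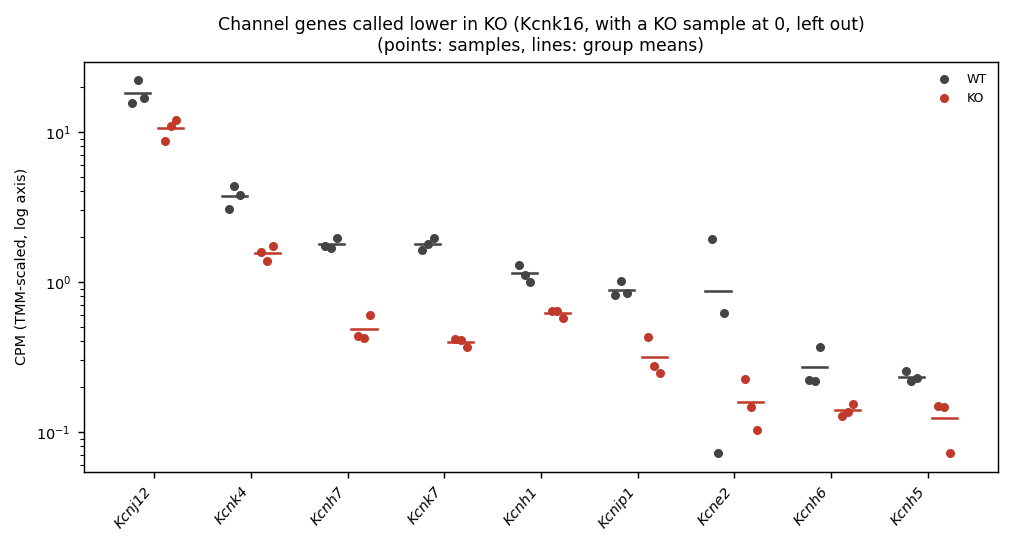
Level in each sample (y axis, CPM on a log axis) of 9 of the 10 channel genes called lower in KO (x axis), with a point for each sample and a line for each group mean; *Kcnk16* is left out because 1 KO sample had a count of 0. The genotypes are apart for 8 genes and overlap for *Kcne2*, whose WT samples lie at 1.92, 0.0726 and 0.616 CPM.

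Among the inward rectifiers, the pore subunits of KATP channels rose together. *Kcnj11* (Kir6.2), the pore of the muscle-type channel, measured 13.2, 13.2 and 14.4 CPM in WT, against 22.5, 26.5 and 27.4 CPM in KO, for a log2 fold change of 0.91 (SE 0.079, adjusted p = 1.52e-05, edgeR). *Kcnj8* (Kir6.1), the pore known from vascular muscle, measured 22.2, 22.5 and 22.0 CPM in WT, against 29.9, 29.9 and 28.5 CPM in KO, for a log2 fold change of 0.41 (SE 0.044, adjusted p = 6.74e-05, edgeR) and so under the fold threshold. Neither gene overlapped between genotypes, and the level of *Kcnj11* per kilobase relative to *Kcnj8* was 0.408 to 0.452 in WT and 0.523 to 0.665 in KO. The regulatory sulfonylurea receptors, which are not Kcn genes, moved the same way. *Abcc9* (SUR2) went from 104 ± 2.91 to 148 ± 8.25 CPM (SD, n = 3; log2 fold change 0.51, adjusted p = 2.49e-05, edgeR) and *Abcc8* (SUR1) from 4.22 to 4.96 CPM (0.23, adjusted p = 0.0403).

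Smooth muscle and pericyte markers summed to 888 to 896 CPM in WT and 925 to 967 CPM in KO, with 2 of 8 called higher and 0 lower. *Acta2*, the largest part of that sum, passed the test as lower under the fold threshold, from 423 to 369 CPM (adjusted p = 0.0121, edgeR). *Myh11* and *Higd1b* were called higher, *Rgs5* and *Cspg4* passed as higher under the fold threshold, and *Cnn1*, *Tagln* and *Notch3* did not pass. Endothelial markers summed to 664 to 692 CPM in WT and 775 to 819 CPM in KO, with 1 of 7 called higher. The part of smooth muscle, pericyte and endothelial content in the *Kcnj8* value was not tested.

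The strong inward rectifiers, which hold the resting potential of muscle fibers, did not move together. *Kcnj12* (Kir2.2; chr11:61022564-61071131) measured 15.5, 22.0 and 16.7 CPM in WT, against 8.69, 11.0 and 11.9 CPM in KO, for a log2 fold change of -0.78 (SE 0.15, adjusted p = 0.00197, edgeR). *Kcnj2* (Kir2.1) had 18 ± 1.03 CPM in WT, against 19.6 ± 3.30 CPM in KO (SD, n = 3), with overlap, and did not pass (0.12, SE 0.11, adjusted p = 0.399, edgeR). Per kilobase, *Kcnj12* stood at 1.60, 2.52 and 1.89 times *Kcnj2* in WT and at 1.08, 1.07 and 1.05 times in KO. The 3 ratios of this kind between channel genes were picked after the values were seen and describe these samples.

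*Kcnj10* (Kir4.1), an inward rectifier best known from glia, measured 2.51, 1.85 and 2.32 CPM in WT, against 4.08, 4.97 and 5.34 CPM in KO, without overlap. Its log2 fold change was 1.10 (SE 0.14, adjusted p = 1.46e-04, edgeR). Schwann cell markers summed to 182 to 198 CPM in WT and 179 to 197 CPM in KO, with 1 of 8 called higher and 1, *Erbb3*, lower. *Kcnj15* fell by less than 1.5-fold (log2 fold change -0.33, adjusted p = 0.0027, edgeR), and the other 5 tested inward rectifiers, which include *Kcnj3* (-0.04) and *Kcnj5* (0.85, adjusted p = 0.126), did not pass.

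K2P channels carry background leak currents, and 6 of the 10 tested members passed the test as lower at any fold, beside 23.1% of all genes tested. *Kcnk7* (chr19:5704367-5707109) measured 1.63, 1.79 and 1.96 CPM in WT, against 0.416, 0.409 and 0.370 CPM in KO, for a log2 fold change of -2.17 (SE 0.14, adjusted p = 2.06e-06, edgeR). *Kcnk4* (chr19:6923966-6934515), which encodes the mechanically gated TRAAK channel, measured 3.05, 4.32 and 3.80 CPM in WT, against 1.59, 1.37 and 1.73 CPM in KO. Its log2 fold change was -1.25 (SE 0.14, adjusted p = 9.41e-05, edgeR). *Catsperz*, on the same strand, shares 587 exon bases with it, 13.1% of the *Kcnk4* exons, and did not pass the test (-0.47, adjusted p = 0.0826, edgeR).

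*Kcnk16* was near the lower limit of the data, with counts of 13, 15 and 16 for the WT samples and of 0, 1 and 2 for the KO samples. The ratio of WT to KO over the pooled counts, scaled to library size, was 14.8 (exact 95% interval 4.76 to 74.7, for counting error only). Only the WT samples carried *Kcnk16* past the low-count filter, so its call draws on the group where it is high. Its fitted log2 fold change of -3.74 (adjusted p = 5.99e-04, edgeR) depends on how low counts are treated. *Kcnk6* (TWIK-2), the most abundant K2P gene, had 35.0, 40.1 and 36.3 CPM in WT, against 28.1, 25.0 and 25.7 CPM in KO, and fell by less than 1.5-fold (log2 fold change -0.50, SE 0.064, adjusted p = 1.96e-04, edgeR). *Kcnk1* (TWIK-1) also fell, from 12, 9.48 and 10.4 CPM to 8.17, 8.45 and 8.88 CPM (-0.32, adjusted p = 0.0145).

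*Kcnk3* went the other way from the rest of the called K2P genes. It encodes TASK-1, an acid-sensitive leak channel, and measured 0.898, 1.28 and 1.20 CPM in WT, against 2.90, 2.78 and 2.83 CPM in KO. The log2 fold change was 1.33 (SE 0.13, adjusted p = 3.87e-05, edgeR), and the noncoding gene *Gm9899* on the opposite strand shares 5.76% of its exon bases. *Kcnk2* rose by less than 1.5-fold (0.30, adjusted p = 0.00564, edgeR).

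The drop of epidermal markers stood beside the lower genes. Over the 9 epidermal markers the median log2 fold change was -4.26, and WT replicate 2 was the highest WT sample for 9 of 9 and replicate 1 the lowest for 8. That order of WT samples, 2 over 3 over 1, was also seen for 4 of the 10 channel genes called lower, which were *Kcnk16*, *Kcnk4*, *Kcnj12* and *Kcnip1*, and for 4 of the 15 called higher. How often that order of WT samples occurs over all genes was not counted. The part of epidermal content in the lower values was not tested.

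Of the channels activated by calcium or sodium, *Kcnt1*, the sodium-activated Slack channel, was called higher. It measured 1.88, 1.65 and 2.08 CPM in WT, against 4.49, 3.38 and 4.49 CPM in KO (log2 fold change 1.13, SE 0.14, adjusted p = 1.28e-04, edgeR). *Kcnma1*, the pore of the large-conductance BK channel, had 20.9, 18.4 and 22.0 CPM in WT, against 28.6, 29.0 and 31.3 CPM in KO. It rose without overlap but by less than 1.5-fold (0.53, SE 0.071, adjusted p = 2.35e-04, edgeR). Its beta subunit *Kcnmb1*, known from smooth muscle, was called higher at 0.422, 0.569 and 0.464 CPM in WT, against 0.651, 0.703 and 0.873 CPM in KO (0.62, SE 0.18, adjusted p = 0.0213, edgeR), and lost that call in 3 of the 6 fits without 1 sample.

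The small-conductance genes varied less. *Kcnn3* (SK3), a gene known from fetal and denervated muscle, was the most abundant of the class per kilobase. It had 16.7, 15.2 and 16.8 CPM in WT, against 17.6, 17.4 and 17.9 CPM in KO and did not pass the test (0.12, adjusted p = 0.123, edgeR), although the genotypes did not overlap. *Kcnn2* (0.43) and *Kcnn4* (0.58) rose by less than 1.5-fold and *Kcnn1* (0.03) did not pass. *Kcnn4*, *Kcna2* (0.57) and *Kcnma1* were the members nearest under the fold threshold, which is 0.585 on the log2 scale, and *Kcnmb1* was among those just above it.

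Of the 15 genes called higher, 11 were lowest in replicate 1 among KO samples, and the exceptions included *Kcnt1*, *Kcnk3* and *Kcns2*. Replicate 1 was also the lowest KO sample for 9 of the 10 muscle fiber markers, among them *Acta1* and *Myh8*, with *Myh3* the exception. A list of 6 myogenic markers held *Pax7*, *Myf5*, *Myod1* and the differentiation or fusion genes *Myog*, *Mymk* and *Mymx*. It summed to 324 to 346 CPM in WT and 305 to 322 CPM in KO, with 0 of 6 called. Under the fold threshold, *Myod1*, *Myog* and *Mymx* passed the test as lower and *Mymk* passed as higher. How often replicate 1 is the lowest KO sample over all genes was not counted. The part of fiber content in the higher channel values was not tested.

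Other genes that serve potassium transport were read from a list of 29 genes outside the family, of which 27 were tested. Of these, 3 were called higher and 1 lower, and 13 had an adjusted p under 0.05. Their median log2 fold change was 0.0018. Over all genes tested, 8.31% were called higher, 8.39% were called lower and 45.0% had an adjusted p under 0.05. The TRIC channels, which carry the K+ counter-current of the sarcoplasmic reticulum during calcium release, were both higher. *Tmem38a* measured 135, 124 and 133 CPM in WT, against 226, 285 and 290 CPM in KO, for a log2 fold change of 1.03 (SE 0.088, adjusted p = 1.36e-05, edgeR). *Tmem38b* went from 21.4 to 36.9 CPM (0.79, SE 0.098, adjusted p = 1.58e-04). The exchanger gene *Slc24a2* was called higher at 0.489 CPM in WT, against 1.46 CPM in KO, and the Kv4 auxiliary gene *Dpp10* lower at 0.326 and 0.105 CPM. *Amigo1*, which encodes an auxiliary protein of Kv channels, rose by less than 1.5-fold, from 38.5 to 50.6 CPM (0.39, adjusted p = 1.56e-04, edgeR).

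The 12 members that were not tested had means under 0.1 CPM and included *Kcna3*, *Kcne1*, *Kcnj9*, *Kcnj13*, *Kcnj16* and *Kcnk18*. Without the filter on low counts, 1 of them, *Kcnj16*, was called lower by edgeR, at counts of 16, 6 and 11 for the WT samples and 1, 3 and 3 for the KO samples. *Kcnj13* shares 49.1% of its exon bases with *Gigyf2* on the opposite strand.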

How the data were processed

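The samples were 3 WT and 3 *SYISL* KO leg muscles of fetuses at embryonic day 18.5. According to the methods and the submitters' processing notes, the authors trimmed 150 bp paired-end reads with Trim Galore 0.6.6, aligned them to mm10 with HISAT2 2.2.1 and counted them per gene with featureCounts 2.0.1. What the authors deposited are unnormalized whole-number counts for each gene. The annotation, the strand setting and the unit counted (reads or pairs) are not given in the sources used here, so counts of overlapping genes and close paralogs are uncertain. The per-sample files and the table of the series differed in 0 values.

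Counts were tested in R 4.3.3 with edgeR 4.0.16, after filterByExpr and TMM scaling, with the quasi-likelihood test on genotype and Benjamini-Hochberg adjustment over 22071 genes. The SE of a log2 fold change is its size divided by the root of F. CPM per kilobase used the union of GENCODE M21 exons. The test was checked on simulated counts. That simulation gave every gene the same dispersion and changed only genes above 1 CPM. It therefore does not cover changes in scarce genes or shifts in tissue content. Alternatives were RLE, upper-quartile and unscaled libraries, DESeq2 1.42.0, limma-voom (limma 3.58.1), other low-count filters, fold thresholds and member minimums, a replicate block and leaving out each sample. Per-sample values are given for called members with a mean of at least 1 CPM, the 2 most abundant members of each class per kilobase, and the called member with the largest change in each class, besides others named where a group was described. The values of some genes that this rule covers are not reported here. Members, classes and marker lists were chosen with earlier results of these data known. Counts summed to 82054811 to 102233181 per sample, and 3 counts is the limit that a count of 0 allows. Intervals cover counting error only.

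Of the other marker lists, cartilage markers summed to 386 to 496 CPM in WT and 335 to 339 CPM in KO, bone to 956 to 1013 and 905 to 979, fibroblast to 28470 to 31452 and 34656 to 35792, macrophage to 223 to 235 and 353 to 387, and melanocyte to 22.3 to 31.8 and 23.2 to 28.6.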

Additional observations from a re-analysis of the deposited data

How the results depend on the processing

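Of the 25 called members, 18 kept their call in every one of 14 refits that gave them a value, 7 lost it in at least 1, and 0 changed direction. The 4 higher genes that lost it included *Kcna10* and *Kcnmb1*, and the 3 lower ones were *Kcne2*, *Kcnh5* and *Kcnh6*. Calls numbered 26 with RLE factors, 28 with upper-quartile factors, 22 with library size only (where *Kcnmb1* was among those lost), 21 with DESeq2, of which 20 were shared, and 24 with limma-voom. They numbered 26 without a filter and 21 with at least 10 counts in every sample, where *Kcna10*, *Kcne2*, *Kcnh5* and *Kcnk16* were no longer tested. Without a fold threshold 27 members were higher and 18 lower, and with a fold change over 2, 10 were higher and 6 lower. The count of genes outside the family called lower was 2 with library size only and 0 with at least 10 counts in every sample. Leaving out 1 sample at a time gave 14 to 18 members higher, 7 to 9 lower and 37 to 44 with an adjusted p under 0.05, with a median log2 fold change of 0.0757 to 0.146. The replicate numbers are not said to pair samples, and deviations of same-numbered WT and KO samples correlated at -0.20, -0.14 and 0.052. With replicate as a block, 25 members were called and 24 of them were shared. Levels near the limit of 3 counts are the least precise.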
